A study of Saccharomyces cerevisiae with 2 samples.

Results

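The *GDH1*, *GDH2*, *GDH3*, *GLT1*, *GLN1*, *IDP1*, *MEP1*, *MEP2* and *MEP3* genes, for ammonium uptake, glutamate and glutamine metabolism and 2-oxoglutarate supply, were examined in an *sdh3*Δ strain of *Saccharomyces cerevisiae*. They were chosen by gene symbol, as 9 of the 5656 genes that could be named on the array, and each had 1 probe set, the short oligonucleotides that the array carries against one transcript. The strain was a *Mat a* haploid carrying *URA3-52*, in which *SDH3* had been deleted by PCR-based allele replacement; it was grown in aerobic batch on minimal medium with glucose and uracil, and cells were taken when 20 ± 2 g/liter of glucose remained. Total RNA of 2 samples, replicate 1 and replicate 2, was hybridized to Yeast Genome S98 arrays. Separate cultures for the duplicates, or a single transformant as their source, are stated neither in the labels nor in the methods, so the spread between the arrays may be technical. Both arrays belong to the same group. No value of a reference strain was used here, so nothing below compares the mutant with another strain, and no test between groups could be made.

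Yeast takes up ammonium through the permeases Mep1, Mep2 and Mep3. In the cytosol the NADPH-dependent glutamate dehydrogenases Gdh1 and Gdh3 join ammonium to 2-oxoglutarate to give glutamate, glutamine synthetase Gln1 adds a further ammonium to make glutamine, and glutamate synthase Glt1 converts glutamine and 2-oxoglutarate back to glutamate with NADH. Gdh2, which uses NAD, runs in the opposite direction and releases ammonium, and Idp1 makes 2-oxoglutarate from isocitrate inside mitochondria with NADP. These steps meet the respiratory pathways at 2-oxoglutarate, a TCA cycle intermediate that lies upstream of succinate dehydrogenase, the enzyme of which Sdh3 is a membrane anchor. When a rich nitrogen source such as ammonium is plentiful, nitrogen catabolite repression, acting through the GATA factors, keeps many genes for poorer sources low.

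*SDH3* had intensities of 22.0 and 29.3, not above background on either array, which alone does not check the deletion, as intact genes can be as dim. Background was taken as the highest of 15 control probe sets for *Bacillus subtilis* genes, which was 54.7 on array 1 and 82.7 on array 2. Pearson's r between the log2 intensities of the arrays was 0.91 over the 9264 positive non-control probe sets, which all share the same 2 arrays. The log2 ratio of replicate 2 over replicate 1 had a median of 0.06 and an SD of 0.71. All 15 bacterial controls were brighter on array 2, with log2 ratios from 0.45 to 0.89 and a median of 0.67. Of the markers of *Mat a* cells, 4 of 5 were above background on both arrays, beside 43.7% of all named genes. In replicate 2, 4 of 5 had the lower value, *STE2* (442 and 169) and *MFA2* (1833 and 690) by more than 2-fold. Among all named genes 44.1% had the higher value there. Of the markers of alpha cells, *MF(ALPHA)1*, with 113 and 177, was above background on both arrays, *SAG1* on array 1 only and *STE3* and *MF(ALPHA)2* on neither. All 4 had the higher value in replicate 2, with log2 ratios from 0.44 to 0.82, close to the range of the bacterial controls. The values of *STE3* and *MF(ALPHA)2* are only upper bounds on both arrays. *SAG1*, with 56.7 on array 1, and the *Mat a* marker *STE6*, with 66.3, have only an upper bound on array 2. The limit there, 82.7, lies above both values. The direction of *STE3*, *MF(ALPHA)2*, *SAG1* and *STE6* is therefore not known. The cause of these differences was not tested.

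Of the 9 genes, 8 were above background on both arrays and *GDH2* was on neither. Above it on both were 43.7% of the named genes and 36.9% of the non-control probe sets. None of the 9 differed more than 2-fold between the arrays, beside 16.7% of the named genes. Of the non-control probe sets 14.1% did, 3.91% higher and 10.2% lower in replicate 2. A difference of more than 1.5-fold was found for 5 of the 9, for 2341 of the 5656 named genes and for 40.0% of the probe sets. Of the 5 genes, 4 were higher in replicate 2 and 1 was lower, beside 17.9% and 22.1% of the probe sets. The 9 log2 ratios of replicate 2 over replicate 1 had a median of -0.05 and ran from -0.95 to 0.99, with 4 above 0 and 5 below, and over all 5656 named genes the median was -0.12. Intensities of different probe sets depend on their own probes, so the intensity of each gene is compared below only with the other array and with background. Ratios between the arrays are also set beside those of other probe sets and genes. In RNA from a whole culture, fewer cells with a transcript and less of it per cell cannot be told apart.

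**Figure D1:**
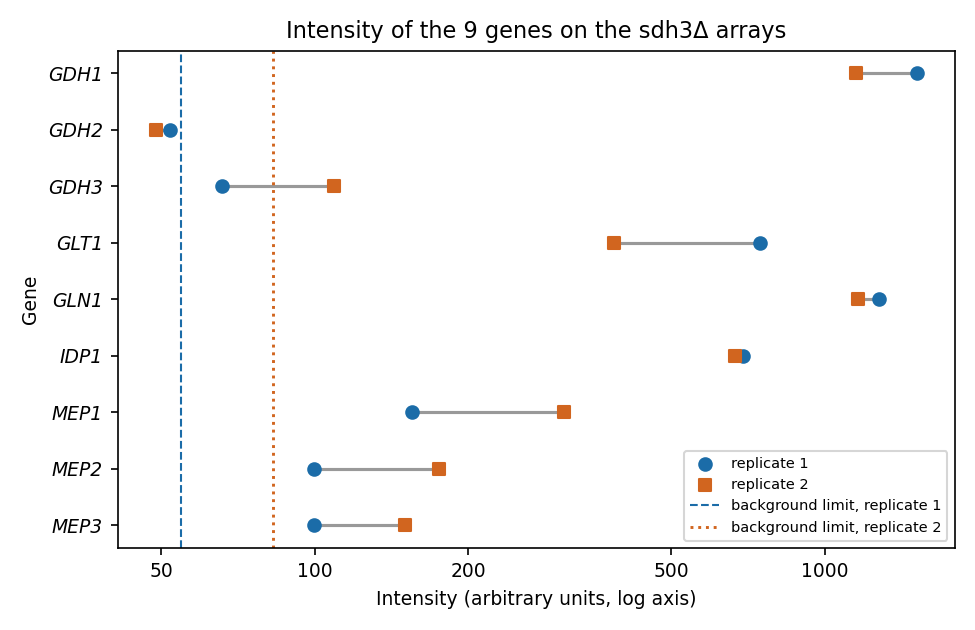
Intensity of the 9 genes (arbitrary units, log axis) on the array of replicate 1 (circles) and of replicate 2 (squares), joined by a line for each gene, with the background limit of each array as a vertical line. *GDH2* lies left of both limits, and *MEP1*, *MEP2*, *MEP3* and *GDH3* have the square to the right of the circle, while for the other genes it lies to the left.

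*GDH1* and *GLN1*, which act in the fixation of ammonium, were far above background on both arrays. *GDH1*, which encodes the main NADPH-dependent glutamate dehydrogenase during growth on glucose, had intensities of 1514 and 1150, a mean of 1332 ± 257 (SD, n = 2). It was dimmer in replicate 2 by a log2 ratio of -0.40, and 33.3% of the probe sets in its decile of mean intensity had a lower ratio. This decile, the brightest, holds 926 probe sets over a wide span of mean intensities, 432 to 20613. Its log2 ratios had a median of 0.14 and an SD of 0.92. *GLN1*, for glutamine synthetase, had 1277 and 1159, a mean of 1218 ± 83.3 (SD, n = 2) and a log2 ratio of -0.14. For both genes the difference between the replicates was smaller than 1 SD of the ratios in this decile.

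*GLT1*, for glutamate synthase, stood lower in replicate 2 than in replicate 1. Its intensities were 747 and 386, with a mean of 567 ± 256 (SD, n = 2) and a log2 ratio of -0.95, just inside the 2-fold limit. In the brightest decile, to which it also belongs, 17.7% of probe sets had a lower ratio, and *GLT1* lay 1.20 SD below the median of that decile. *GLT1* has the longest coding length of the 9 genes, at 6438 bases, and the 565 genes of the longest decile had a median log2 ratio of -0.34 with an SD of 0.58. The part of length or of RNA quality in the value of *GLT1* was not tested. The control probe sets at the 3′ and 5′ ends of *ACT1*, the actin gene, had a 3′ over 5′ ratio of 1.02 on array 1 and 1.13 on array 2, those of *SRB4* one of 2.74 and 1.17, and those of *SPT15* one of 1.03 and 0.93.

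*IDP1*, whose mitochondrial enzyme supplies 2-oxoglutarate, gave nearly equal intensities of 691 and 666, a mean of 679 ± 18.2 (SD, n = 2) and a log2 ratio of -0.05. Its relatives for the same reaction in other compartments were dim. *IDP2*, for the cytosolic form, had 49.97 and 49.01, and *IDP3*, for the peroxisomal form, had 42.5 and 23.8. Neither was above background on either array.

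The other glutamate dehydrogenase genes gave weak signals. *GDH2*, whose NAD-dependent enzyme breaks glutamate down, had 52.0 and 48.7, below the limit of both arrays, so its value is only an upper bound on each. *GDH3*, a paralog of *GDH1* known for its expression on nonfermentable carbon sources, had 65.8 and 109, a mean of 87.4 ± 30.6 (SD, n = 2). These were 1.20 times the background limit on array 1 and 1.32 times on array 2. The log2 ratio of *GDH3* was 0.73, against -0.40 for *GDH1*, and with the ratios centred on the bacterial controls it was 0.06. The log2 ratio of *GDH3* was thus close in size to the median of the controls, 0.67. In intensity units, its difference between the arrays was 43.3, larger than those of the controls, which ran from 8.56 to 33.9. Whether transcripts of *GDH1* bind probes of *GDH3* was not examined, as no probe sequence was used here.

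**Figure D2:**
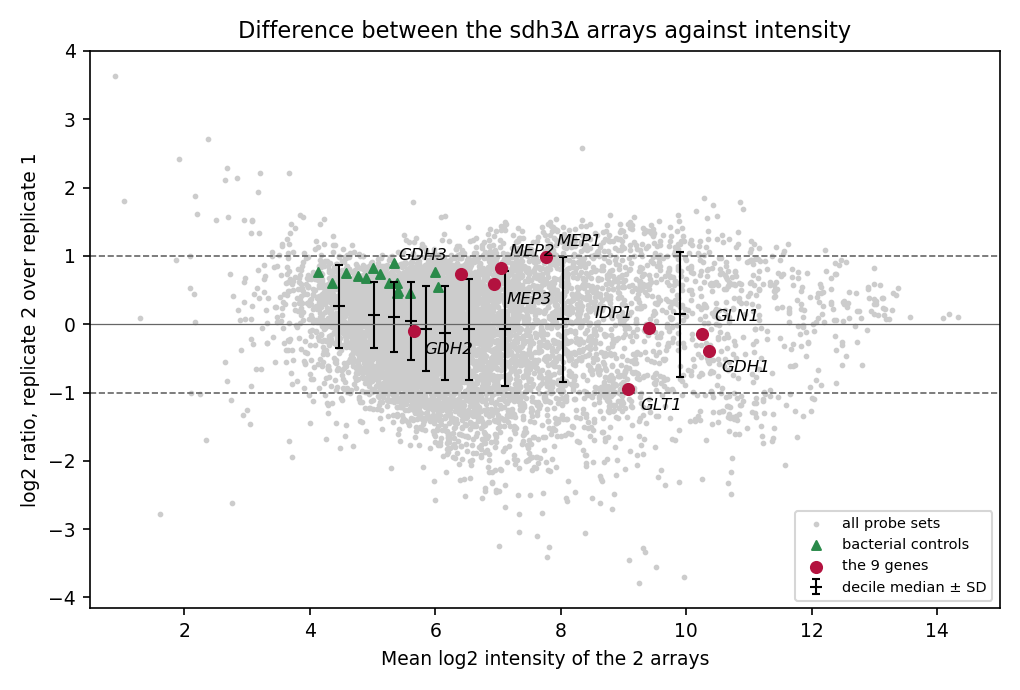
The log2 ratio of replicate 2 over replicate 1 against the mean log2 intensity of both arrays, for the 9264 non-control probe sets (grey), the 15 bacterial controls (triangles) and the 9 genes (large points, named). Black bars give the median and SD in each decile of mean intensity, and dashed lines mark 2-fold. All 9 genes lie between the dashed lines, with *MEP1* next to the upper line and *GLT1* next to the lower.

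The permease genes *MEP1*, *MEP2* and *MEP3* were all brighter in replicate 2 on the deposited scale, though with the ratios centred on the bacterial controls *MEP3* had a log2 ratio of -0.08 and *MEP2* and *MEP1* had 0.15 and 0.31. *MEP1*, for a permease of high capacity, had intensities of 155 and 307, a mean of 231 ± 108 (SD, n = 2), and the log2 ratio of 0.99 was the highest of the 9 genes. *MEP2*, for the permease with the highest affinity, which also acts in the signaling of filamentous growth, had 99.4 and 175, a mean of 137 ± 53.7 (SD, n = 2) and a log2 ratio of 0.82. *MEP3* had 99.4 and 150, a mean of 125 ± 35.9 (SD, n = 2) and a log2 ratio of 0.60. Each of these probe sets was above background on both arrays, *MEP1* at 2.83 and 3.71 times the limit, *MEP2* at 1.82 and 2.12 times, and *MEP3* at 1.82 times on both.

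Among probe sets of like brightness, the permease genes lay in the upper part of the range of ratios. *MEP1* lay 1.00 SD above the median ratio of its decile, *MEP2* 1.05 SD and *MEP3* 0.78 SD, and 89.1%, 87.7% and 79.2% of the probe sets in their deciles had a lower ratio. All 3 permease genes were brighter in replicate 2 by more than 1.5-fold, as were 17.9% of all non-control probe sets. The log2 ratios of *MEP2* and *MEP3* lay within the range of the bacterial controls, 0.45 to 0.89, and that of *MEP1* lay above it. In intensity units, the controls were brighter on array 2 by 8.56 to 33.9. The differences of *MEP1*, *MEP2* and *MEP3*, at 152, 75.9 and 50.8, were all larger than those of the controls. The part of whatever brightened the controls in the values of the permease genes was not tested.

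Of the 5 genes in the list of GATA factors and *URE2*, 1 was above background on both arrays, beside 43.7% of all named genes. This was *GAT1*, for a GATA activator, with 157 and 259 and a log2 ratio of 0.72. *GLN3*, the other GATA activator, had 63.5 and 32.8 and *URE2*, whose product holds Gln3 in the cytosol, had 78.3 and 41.5, each above background on array 1 only, as was *GZF3*. The repressor gene *DAL80* had 24.8 and 31.8, not above background on either array. *NPR1*, for a kinase that keeps Mep permeases active, had 153 and 99.4, a log2 ratio of -0.63 and thus lower in replicate 2, where the 3 permease genes were brighter on the deposited scale. *AMU1*, whose product inhibits Mep1 and Mep3 and is controlled by Npr1, had 95.1 and 65.0, above background on array 1 only.

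The genes around the 9 were read from 6 lists, of which 47 of 50 genes could be measured. Of these, 8 differed more than 2-fold between the replicates, 1 higher and 7 lower in replicate 2, which is 17.0% of them beside 16.7% of all named genes. One of the 8, *AAT1*, was not above background on array 2, and with values raised to background 7 of the 47 differed more than 2-fold, 14.9% beside 10.02% of all named genes. The single gene above the 2-fold limit was *PUT4*, for a proline permease under nitrogen catabolite repression, with 59.0 and 125 and a log2 ratio of 1.09. Its value on array 1 lay just above the background limit of 54.7. Centred on the bacterial controls, which shifts every log2 ratio by 0.67, *PUT4* was not past 2-fold. The same shift takes further genes of the lists past 2-fold on the lower side. In the same list, of nitrogen catabolite repression targets, 4 of 8 measured genes were above background on both arrays, beside 43.7% of all named genes. Besides *PUT4* these were *AGP1*, for a broad amino acid permease, with 254 and 507, *GAP1* with 78.3 and 94.0, and *PUT2* with 188 and 126. *PUT2* was thus lower in replicate 2. *DAL5*, *DAL7*, *DUR3* and *PUT1* were not above background on either array. In the supply of 2-oxoglutarate, *CIT2*, for peroxisomal citrate synthase, had 1577 and 491, a log2 ratio of -1.68. On the deposited scale it was the only 1 of 7 measured genes past 2-fold, but not with ratios centred on the bacterial controls.

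The glutamine-using enzymes were above background on both arrays in 14 of 14 measured genes, beside 43.7% of all named genes. Past 2-fold and lower in replicate 2 were *ASN1*, an asparagine synthetase gene, with 657 and 254, *URA7*, for CTP synthase, with 347 and 125, and *CPA1*, for the glutaminase subunit of carbamoyl phosphate synthetase, with 2470 and 1223. The median log2 ratio of that list was 0.15. Of 11 transaminase genes, 8 had the higher value in replicate 2, beside 44.1% of all named genes, and the median log2 ratio was 0.42. This median was smaller than the shift of 0.67 made by centring on the bacterial controls. Of the 8 genes, 2 were above background on neither array, so their direction is not known. The 2 shown past 2-fold were lower in replicate 2. *SER1*, of serine synthesis, had 873 and 182, a log2 ratio of -2.26, and *HIS5*, of histidine synthesis, had 328 and 151. *AAT1*, for mitochondrial aspartate aminotransferase, had 141 on array 1 and was not above background on array 2, a decrease of at least 1.71-fold, and its place relative to 2-fold is not known. These shifts are differences between 2 arrays of the same condition and carry no test.

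**Figure D3:**
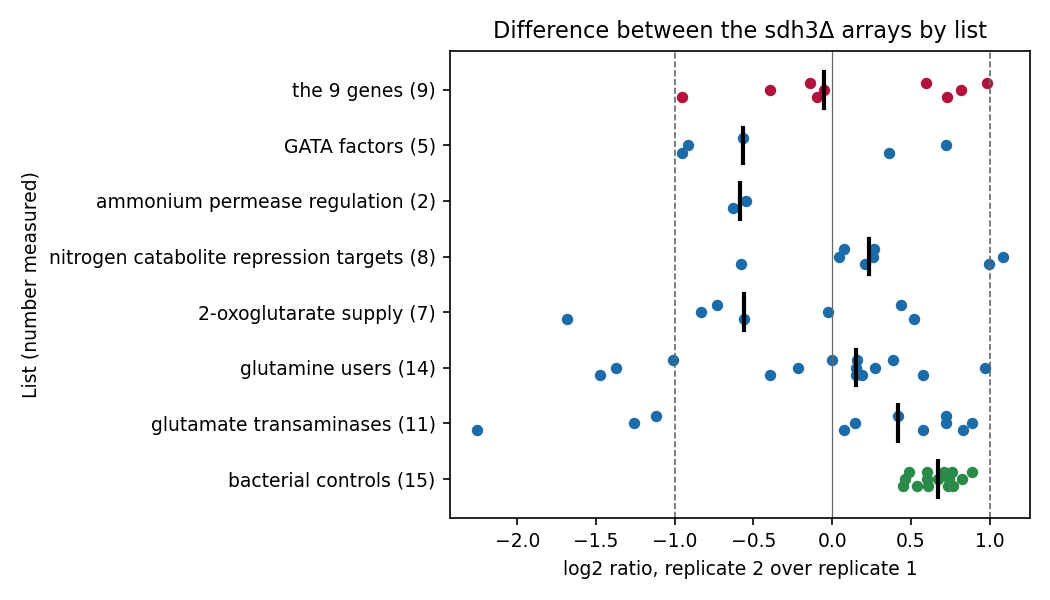
The log2 ratio of replicate 2 over replicate 1 for each measured gene of the 9 and of the 6 surrounding lists, and for the 15 bacterial controls; each point is 1 gene or control probe set, short bars are medians and dashed lines mark 2-fold. No point of the 9 genes lies outside the dashed lines, 8 points of the surrounding lists do on the deposited values (1 of them *AAT1*, not above background on array 2), and all bacterial controls lie between 0.45 and 0.89.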

How the data were processed

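Both *sdh3*Δ arrays were analysed. The authors processed each scan in Microarray Suite, version 5, with a global scaling factor. They then normalized the data with dChip and computed expression levels by its Perfect Match model. The deposited intensities are on a linear scale, and which of these steps gave them is not stated. Both arrays hold the same 9335 probe sets, and the number of arrays limits the precision. Of 9335 probe sets, 60 are controls and 11 with a value at or below 0 were left out. The array annotation named 6504 for 1 gene (328 for several, 2443 for none), and all 6504 were found by gene ID in the RefSeq table of assembly R64, used for names and coding lengths. Where a gene had several plain probe sets, the mean of their log2 values was taken. Log2 ratios of array 2 over array 1 were computed with no further scaling and described beside deciles of mean intensity. No test was run. The computation was run on simulated data with less noise than the real arrays, which checks the code and not recovery at the real spread. The authors' comparison with a reference strain was not used here. All 9 genes are named, with *IDP2* and *IDP3* as relatives of *IDP1*, the targeted gene, and of the lists those past 2-fold and above background on 1 array. Mating type markers and *GAT1*, *GLN3*, *GZF3*, *URE2*, *DAL80*, *NPR1*, *AMU1*, *AGP1*, *GAP1*, *PUT2*, *DAL5*, *DAL7*, *DUR3* and *PUT1* were named after their values were seen. The 9 genes and lists were chosen with earlier results of these data known. Alternatives were other centring, quantile normalization, values raised to background, other limits and single arrays. Python 3.11.15, numpy 2.4.6, pandas 2.3.3 and matplotlib 3.10.9 were used.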

Additional observations from a re-analysis of the deposited data

How the results depend on the processing

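The count of genes that differ more than 2-fold, 0 on the deposited scale, was 1 when ratios were centred on the median of all probe sets or of the same decile of intensity (*GLT1*, at -1.01 and -1.10), and 1 after quantile normalization (*MEP1*, at 1.07). It was 2 when ratios were centred on the bacterial controls, a setting chosen after seeing the data that shifts every log2 ratio by 0.67 (*GLT1* at -1.63 and *GDH1* at -1.07), and 5 with a limit of 1.5-fold. With values raised to background it stayed 0. The same centring on the controls moved the median of the 9 log2 ratios to -0.73 and turned the sign of *MEP3*, while raising values to background turned that of *GDH2*, to 0.60, which there is the ratio of the limits. The count above background was 8 to 8 when each replicate was left out, and 8 with the limit from the mean plus 2 SD of the controls or, added after seeing the data, from 19 bacterial and mouse controls. Mean log2 intensities moved by less than 1 SD of the replicates under quantile normalization; with 2 arrays, leaving out either one cannot move a mean by more than that, so it says nothing of stability. No paired analysis was possible because there is 1 group. The planned comparison of protein sequences and count of promoter motifs was not run, as no sequence was used here.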
